A study of Mus musculus with 6 samples.

Results

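Solute carriers are membrane proteins that carry sugars, amino acids, ions, metals, vitamins and other small molecules across the cell surface and the membranes of organelles, and their genes bear symbols that begin with Slc and a family number. Of 384 annotated genes with such a symbol, the 48 of the mitochondrial Slc25 family and 3 others (*Slc14a1*, *Slc12a2* and *Slc28a2*) were set aside, and 164 of the remaining 333 had a mean of at least 5 counts per 1000000 gene counts (CPM) over the 6 libraries. These 164 members, of 56884 genes counted, belonged to 43 families and were sorted into 12 substrate classes. For 3 of them (*Slc2a4rg-ps*, *Slc4a1ap* and *Slc7a6os*) the symbol shares the prefix without naming a transporter. The other 169 genes lay below the minimum, 21 of them with 0 counts in every library.

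The libraries were RNA sequencing libraries of cells sorted for GFP made from the *Lgr5* locus, out of organoids of mouse small intestine, self-organising cultures of its epithelium. The organoids of every group carried the same alleles: Villin-CreERT2, Lgr5-EGFP-IRES-CreERT2 and Ythdf2fl/fl. The villin promoter is active in intestinal epithelium, and CreERT2 is a Cre recombinase that works once 4-hydroxytamoxifen (4-OHT) binds it. One group received 0.5 µM 4-OHT and the other ethanol (EtOH), the vehicle, and cells were sorted at day 6 (2 libraries of each treatment) or day 4 (1 library of each). The labels do not say whether replicates came from separate cultures or animals, so p-values measure the spread between these libraries, which may be technical.

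In the small intestine, uptake by solute carriers is arranged by side of the cell. Carriers of the brush border take up sugars, amino acids, iron and folate from the lumen, often driven by sodium or protons, and carriers of the basolateral side pass them on towards the blood. Absorptive enterocytes of the villus carry much of this machinery, while dividing crypt cells depend on carriers that feed growth, such as those for glutamine, large neutral amino acids, glucose and lactate.

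Gene counts summed to between 14345379 and 21461835 a library. Counts of *Ythdf2*, the floxed gene, went against a loss of its transcript: at day 6 the EtOH libraries held 1563 and 1312 and those labelled 4-OHT 4463 and 3816 (log2 fold change 1.37 ± 0.16 (SE), edgeR adjusted p = 0.0018), while day 4 gave 1483 for EtOH and 2466 for 4-OHT. The counts cover the whole gene, and reads per exon were not analysed here, so libraries are called by their labels. *Lgr5* stood at 253 and 344 against 208 and 227 CPM at day 6 (in such pairs the EtOH libraries come first throughout). Markers of fibroblasts, of blood and immune cells and of endothelium summed to at most 1.08, 3.43 and 6.47 CPM in any library, and the fibroblast marker *Lum* and the tuft cell marker *Il25* had 0 counts in all 6.

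At day 6, 12 of the 164 solute carrier genes were higher in the libraries labelled 4-OHT and 0 were lower (edgeR quasi-likelihood test, Benjamini-Hochberg adjusted p under 0.05 over 14066 genes). That is 7.32% of the members higher, where 2.27% of all tested genes were higher and 0.235% lower (2.51% in either direction). Without adjustment, 36 members and 1453 of all genes had a p under 0.05, and the median log2 fold change was 0.10 over the members and -0.01 over all tested genes. The 12 included carriers of glucose, fructose, amino acids, iron, sodium, chloride, bile acids and creatine. *Slc4a11*, *Slc16a5* and *Slc35f6*, outside that description, were also among them. In all 12, both libraries labelled 4-OHT lay above both EtOH libraries. The test that picked these genes used the same libraries, so this separation adds no support.

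The members were chosen by their mean level over all 6 libraries, which the treatment can move. Of the 164, 156 had a mean of at least 5 CPM in each treatment, 7 reached the minimum only through the libraries labelled 4-OHT (*Slc4a11*, *Slc51a*, *Slc45a3*, *Slc35e4*, *Slc22a4*, *Slc27a3* and *Slc35d2*) and 1 only through the EtOH libraries (*Slc30a2*). *Slc4a11* and *Slc51a* are therefore 2 calls that the choice of members favoured, and the other 10 calls come from the 156 (6.41% of these). The share over all tested genes also covers genes below the 5 CPM minimum, so it was not matched to the members by level. Just inside the minimum lay *Slc27a3* (mean 5.05 CPM), *Slc4a11* (5.14) and *Slc35d2* (5.19), and just outside it *Slc41a2* (4.96), *Slc18a2* (4.87) and *Slc43a1* (4.79).

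**Figure D1:**
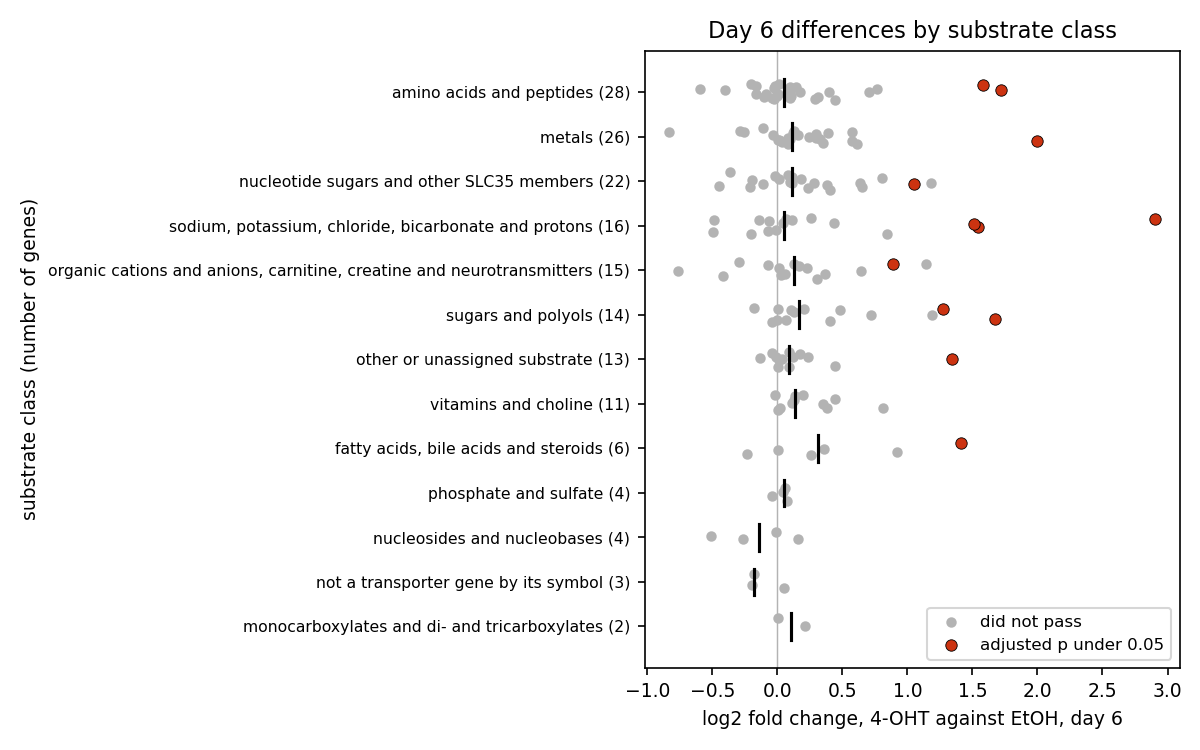
Day 6 log2 fold change (libraries labelled 4-OHT against EtOH, x axis) of each of the 164 genes by substrate class (y axis, number of genes in parentheses). Each point is 1 gene, red points have an adjusted p under 0.05 and black bars are class medians; the 12 red points all lie to the right of 0 and spread over 8 classes.

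Among 14 carriers of sugars and polyols, 2 rose and 0 fell at day 6, and the class median log2 fold change was 0.17. Beside this and each class count below stand the shares over all tested genes, 2.27% higher and 0.235% lower. Classes are small, and differences between them were not tested. *Slc2a2* encodes GLUT2, a facilitative carrier for glucose and fructose of the basolateral membrane (ENSMUSG00000027690, GRCm39 chromosome 3, 28752051 to 28785508, plus strand). It stood at 13.3 and 14.9 CPM in the EtOH libraries against 54.6 and 35.5 CPM in the libraries labelled 4-OHT, log2 fold change 1.68 ± 0.25 (SE), edgeR adjusted p = 0.00594. *Slc2a5* encodes GLUT5, the brush border carrier of fructose (ENSMUSG00000028976, GRCm39 chromosome 4, 150196268 to 150228931, plus strand), and was at 9.91 and 11.1 CPM in the EtOH libraries against 28.6 and 21.99 CPM in the libraries labelled 4-OHT, log2 fold change 1.27 ± 0.24 (SE), edgeR adjusted p = 0.021. For both genes the EtOH libraries lay close together and the first library labelled 4-OHT was the higher of its pair. In bulk samples, fewer cells of a type and less RNA per cell cannot be told apart, here and in the results that follow.

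The other main glucose carriers did not pass. *Slc5a1* encodes SGLT1, which takes up glucose with sodium at the brush border, and was at 255 and 372 CPM in the EtOH libraries against 423 and 405 CPM in the libraries labelled 4-OHT (log2 fold change 0.40 ± 0.20 (SE), edgeR adjusted p = 0.563). Its EtOH libraries differed from each other more than the libraries labelled 4-OHT did. *Slc2a1*, the GLUT1 glucose carrier of dividing cells, stood at 166 and 155 against 135 and 216 CPM (log2 fold change 0.13 ± 0.21 (SE), edgeR adjusted p = 0.927), with one library labelled 4-OHT below and one above both EtOH libraries. Per kb of exon, which allows genes to be set side by side, the mean level of *Slc5a1* was 76.4 CPM per kb in the EtOH libraries and 101 in those labelled 4-OHT. *Slc2a2* went from 2.05 to 6.53 CPM per kb and *Slc2a5* from 2.44 to 5.87, so both stayed far below *Slc5a1* on that scale.

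Of 28 genes for carriers of amino acids and peptides, 2 rose and 0 fell at day 6, with a class median of 0.05. *Slc6a19* encodes the sodium-driven carrier of neutral amino acids in the brush border, B0AT1 (ENSMUSG00000021565, GRCm39 chromosome 13, 73827860 to 73852984, minus strand). It was at 18.00 and 10.99 CPM in the EtOH libraries against 61.2 and 34.1 CPM in the libraries labelled 4-OHT, log2 fold change 1.72 ± 0.31 (SE), edgeR adjusted p = 0.0188. *Slc7a9* encodes the light chain of the carrier for cystine and basic amino acids (ENSMUSG00000030492, GRCm39 chromosome 7, 35147668 to 35165461, plus strand), and was at 9.54 and 9.72 CPM in the EtOH libraries against 29.7 and 27.8 CPM in the libraries labelled 4-OHT, log2 fold change 1.58 ± 0.22 (SE), edgeR adjusted p = 0.00454. The libraries of each group lay close together for *Slc7a9* and further apart for *Slc6a19*.

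*Slc3a1*, the heavy chain that *Slc7a9* pairs with, was at 26.4 and 37.6 against 57.9 and 50.4 CPM (log2 fold change 0.76 ± 0.21 (SE), edgeR adjusted p = 0.126) and was named for this pairing after its values were seen. Of its exon bases, 26.8% lie in *Prepl*, which makes its count uncertain.

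The amino acid carriers linked with growth did not pass and their groups overlapped. *Slc1a5*, the ASCT2 carrier of glutamine and other neutral amino acids, was at 430.0 and 391 against 339 and 425 CPM (log2 fold change -0.10 ± 0.17 (SE), edgeR adjusted p = 0.931). *Slc7a5*, the LAT1 light chain for large neutral amino acids, was at 195 and 137 against 163 and 164 CPM (log2 fold change -0.02 ± 0.19 (SE), edgeR adjusted p = 0.99), and *Slc3a2*, its heavy chain, at 197 and 153 against 152 and 189.9 CPM (log2 fold change -0.03 ± 0.18 (SE), edgeR adjusted p = 0.985). For each of these 3 genes, libraries of one treatment lay on both sides of a library of the other. *Slc38a2*, a sodium-driven carrier of small neutral amino acids, was at 264 and 355 against 237 and 300.2 CPM (log2 fold change -0.20 ± 0.20 (SE), edgeR adjusted p = 0.849), and *Slc7a11*, the exchanger of cystine for glutamate, at 24.2 and 39.9 against 33.4 and 51.00 CPM (log2 fold change 0.40 ± 0.28 (SE), edgeR adjusted p = 0.74).

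Among 16 genes for carriers of sodium, potassium, chloride, bicarbonate and protons, 3 rose and 0 fell at day 6, while the class median was 0.05. *Slc9a3* encodes NHE3, the sodium/proton exchanger through which the brush border takes up sodium (ENSMUSG00000036123, GRCm39 chromosome 13, 74269360 to 74317561, plus strand). It was at 6.59 and 8.16 CPM in the EtOH libraries against 25.4 and 16.5 CPM in the libraries labelled 4-OHT, log2 fold change 1.51 ± 0.29 (SE), edgeR adjusted p = 0.0217. *Slc26a6* encodes an apical anion exchanger of chloride, bicarbonate and oxalate (ENSMUSG00000023259, GRCm39 chromosome 9, 108730289 to 108742118, plus strand) and was at 14.4 and 14.9 CPM in the EtOH libraries against 44.4 and 40.8 CPM in the libraries labelled 4-OHT, log2 fold change 1.54 ± 0.20 (SE), edgeR adjusted p = 0.0029. The 2 libraries of each group nearly coincided for *Slc26a6*, which had the smallest adjusted p of the 164 genes. Its exons share 33.7% of their bases with another annotated gene, *Gm57039*, and as the strand setting of the counts is not given in the sources used here, its count is uncertain to that extent.

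*Slc4a11*, a borate transporter family member best known from the corneal endothelium, had the largest log2 fold change of the members on both days (ENSMUSG00000074796, GRCm39 chromosome 2, 130526028 to 130539898, minus strand). It reached the minimum only through the libraries labelled 4-OHT, so the choice of members favoured a high rank. Its day 6 counts were 12 and 6 with EtOH and 95 and 58 with the 4-OHT label, which is 0.643 and 0.347 CPM in the EtOH libraries against 4.41 and 3.11 CPM in the libraries labelled 4-OHT (log2 fold change 2.91 ± 0.51 (SE), edgeR adjusted p = 0.0165). At day 4 it had 10 counts in the EtOH library and 314 in the library labelled 4-OHT, or 0.509 CPM in the EtOH library and 21.3 CPM in the library labelled 4-OHT, a log2 fold change of 5.09 that rests on 1 library a group. Its level was thus low in all 3 EtOH libraries, and the day 4 library labelled 4-OHT stood above both day 6 libraries of that label. The promoter, chr2:130539395-130539694 on the minus strand of GRCm39, is shown for that range of levels. It runs from 250 bases before to 50 bases after the start of the canonical transcript, in lower case since it held none of the motifs searched.
Slc4a11: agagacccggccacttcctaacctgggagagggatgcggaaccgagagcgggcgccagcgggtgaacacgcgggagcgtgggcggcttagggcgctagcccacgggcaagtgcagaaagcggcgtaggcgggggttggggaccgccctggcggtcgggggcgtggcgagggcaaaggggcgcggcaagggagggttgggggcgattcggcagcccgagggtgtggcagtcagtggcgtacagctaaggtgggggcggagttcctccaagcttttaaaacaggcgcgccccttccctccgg
Each motif was searched on both strands of 21770 protein-coding promoters of the same length. There were 0 matches in the 12 genes that passed to CAAAGTCCA, of the HNF4 type (0.45% of all promoters), CCATAAA, of the CDX type (2.59%), TATAAA, the TATA box (13.2%), and the full palindromic HNF1 site (0.00459%). GTTAAT, the short form of the HNF1 site that the full one contains, matched in 1 of the 12 (8.33%), near the 6.89% of all promoters. A match is a run of letters only, and no match says nothing of a factor.

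The ion carriers that did not pass included those of chloride exit and exchange. *Slc26a3*, the chloride/bicarbonate exchanger DRA of the apical membrane, was at 36.97 and 53.3 against 30.2 and 33.9 CPM (log2 fold change -0.49 ± 0.22 (SE), edgeR adjusted p = 0.473), with both libraries labelled 4-OHT below both EtOH libraries. *Slc12a7*, a potassium-chloride cotransporter, was at 122 and 157 against 143 and 144 CPM (log2 fold change 0.04 ± 0.17 (SE), edgeR adjusted p = 0.976), and its groups overlapped.

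Of 26 genes for carriers of metals, 1 rose and 0 fell at day 6, and the class median was 0.11. That gene was *Slc40a1*, which encodes ferroportin, the exporter that passes iron through the basolateral membrane (ENSMUSG00000025993, GRCm39 chromosome 1, 45947211 to 45965683, minus strand). It was at 11.5 and 23.8 CPM in the EtOH libraries against 55.6 and 85.01 CPM in the libraries labelled 4-OHT, log2 fold change 1.996 ± 0.33 (SE), edgeR adjusted p = 0.0104. The second library was the higher one in each group, and the groups did not overlap. *Heph*, the ferroxidase that works with ferroportin, was at 49.5 and 64.9 against 106 and 94.3 CPM and just missed the threshold (log2 fold change 0.81 ± 0.19 (SE), edgeR adjusted p = 0.0547). *Slc11a2*, the DMT1 carrier by which ferrous iron enters from the lumen, was at 131 and 134 against 160.1 and 234 CPM (log2 fold change 0.57 ± 0.19 (SE), edgeR adjusted p = 0.246), and the ferric reductase *Cybrd1* at 39.1 and 103 against 58.8 and 116 CPM (log2 fold change 0.30 ± 0.41 (SE), edgeR adjusted p = 0.9). *Slc39a4*, the ZIP4 importer of zinc at the brush border, was at 90.7 and 111 against 117 and 141 CPM (log2 fold change 0.35 ± 0.18 (SE), edgeR adjusted p = 0.57), and 24.6% of its exon bases lie in another gene. Of these genes, *Cybrd1* had overlapping treatments.

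The 6 carriers of fatty acids, bile acids and steroids held 1 gene that rose. *Slc51a* encodes the alpha chain of the basolateral bile acid exporter (ENSMUSG00000035699, GRCm39 chromosome 16, 32293322 to 32306842, minus strand) and was at 5.36 and 5.21 CPM in the EtOH libraries against 16.4 and 11.7 CPM in the libraries labelled 4-OHT, log2 fold change 1.42 ± 0.29 (SE), edgeR adjusted p = 0.0313. Its exons share 25.2% of their bases with *Pcyt1a*, with the same uncertainty as above. The beta chain *Slc51b* was below the minimum, with day 6 counts of 12 and 4 (EtOH) against 7 and 20 (4-OHT). *Slc27a4*, a fatty acid transport protein, was at 58.4 and 47.2 against 75.5 and 59.4 CPM (log2 fold change 0.36 ± 0.19 (SE), edgeR adjusted p = 0.608).

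Of 15 genes for carriers of organic cations and anions, carnitine, creatine and neurotransmitters, 1 rose at day 6. *Slc6a8* encodes the sodium-driven creatine carrier (ENSMUSG00000019558, GRCm39 chromosome X, 72716728 to 72726108, plus strand) and was at 39.1 and 49.5 CPM in the EtOH libraries against 84.1 and 79.5 CPM in the libraries labelled 4-OHT, log2 fold change 0.89 ± 0.18 (SE), edgeR adjusted p = 0.0334. *Slc16a12*, which also carries creatine, lay the other way, at 33.97 and 41.1 against 17.8 and 26.5 CPM (log2 fold change -0.76 ± 0.24 (SE), edgeR adjusted p = 0.183). The EtOH and 4-OHT libraries did not overlap in either gene. *Slc6a6*, the taurine carrier, was at 173 and 287 against 230.5 and 271 CPM (log2 fold change 0.13 ± 0.23 (SE), edgeR adjusted p = 0.934), and *Slc22a5*, the carnitine carrier, at 24.1 and 24.2 against 26.5 and 22.2 CPM (log2 fold change 0.02 ± 0.21 (SE), edgeR adjusted p = 0.99).

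The remaining 2 calls were of carriers placed by family more than by a known substrate. *Slc16a5*, of the monocarboxylate carrier family (ENSMUSG00000045775, GRCm39 chromosome 11, 115353200 to 115365224, plus strand), was at 8.68 and 8.68 CPM in the EtOH libraries against 20.8 and 23.3 CPM in the libraries labelled 4-OHT, log2 fold change 1.35 ± 0.23 (SE), edgeR adjusted p = 0.0142. *Slc35f6*, 1 of 22 genes grouped with the nucleotide sugar carriers of the Golgi and endoplasmic reticulum (ENSMUSG00000029175, GRCm39 chromosome 5, 30805266 to 30817074, plus strand), was at 21.3 and 18.1 CPM in the EtOH libraries against 39.3 and 42.1 CPM in the libraries labelled 4-OHT, log2 fold change 1.05 ± 0.20 (SE), edgeR adjusted p = 0.0208. Both genes had tight pairs of libraries with a clear gap between treatments.

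No member passed at day 6 among 11 carriers of vitamins and choline, 4 of nucleosides and nucleobases, 4 of phosphate and sulfate and 2 of monocarboxylates and di- and tricarboxylates. In classes of this size, 0 calls cannot be told from the 2.51% of all tested genes that passed. *Slc46a1*, the proton-driven folate carrier, was at 7.02 and 4.34 against 11.5 and 8.37 CPM (log2 fold change 0.81 ± 0.32 (SE), edgeR adjusted p = 0.392), and 54.8% of its exon bases lie in another gene. *Slc16a1* and *Slc16a3*, the lactate carriers MCT1 and MCT4, had log2 fold changes of 0.00 ± 0.18 and 0.21 ± 0.21 (SE), with edgeR adjusted p of 0.997 and 0.85. Of the exon bases of *Slc16a3*, 44.1% lie in another gene, as do 21.2% of those of *Slc20a1*. *Slc29a1*, an equilibrative nucleoside carrier, was at 0.16 ± 0.22 (adjusted p = 0.899), and *Slc20a1*, a sodium-driven phosphate carrier, at 0.07 ± 0.20 (adjusted p = 0.962).

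**Figure D2:**
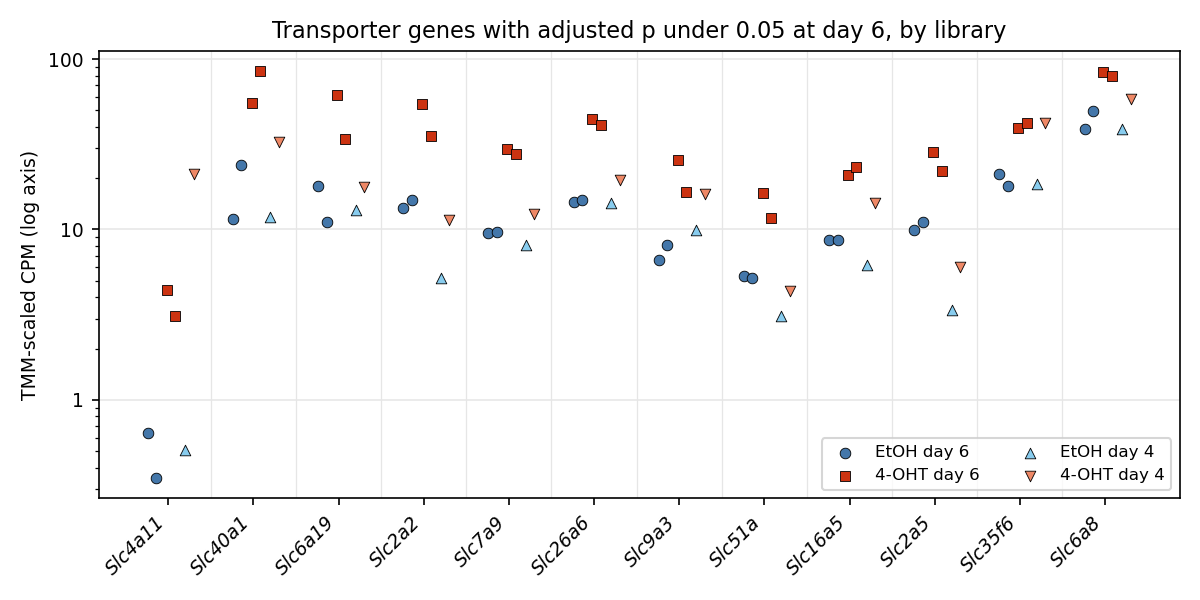
Level of the 12 genes that passed at day 6 in each of the 6 libraries (y axis, TMM-scaled CPM on a log axis, 1 point a library). Both day 6 libraries labelled 4-OHT (red squares) lie above both day 6 EtOH libraries (dark blue circles) for each gene, and the day 4 library labelled 4-OHT lies above the day 4 EtOH library in all 12. The genes were picked by a test on the day 6 libraries, which favours the day 6 separation.

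These calls rested on few libraries. Without the first EtOH library, 2 of the 12 still passed (*Slc7a9* and *Slc26a6*), while over all genes the calls went from 320 higher and 33 lower to 91 and 8. Without the second EtOH library, 5 of the 12 passed (*Slc40a1*, *Slc2a2*, *Slc7a9*, *Slc26a6* and *Slc6a8*). Without the first library labelled 4-OHT, *Slc9a3*, *Slc51a*, *Slc2a5* and *Slc6a8* no longer passed, and without the second, *Slc35f6* and *Slc6a8*. The log2 fold change kept its sign for all 12 whichever of the 4 libraries was left out, and ranged least in *Slc7a9* (1.53 to 1.63) and most in *Slc40a1* (1.56 to 2.62).

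Markers of absorptive enterocytes moved with these carriers. Of 15 listed markers, 11 rose and 0 fell at day 6, with a median log2 fold change of 1.74. Over all tested genes, 2.27% were higher and 0.235% lower, the shares to set beside each marker list here. The summed level of the 15 was 1787 and 1837 CPM in the EtOH libraries, 5051 and 4161 CPM in those labelled 4-OHT. *Alpi*, the intestinal alkaline phosphatase, was at 96.6 and 107 against 475 and 506 CPM (log2 fold change 2.27 ± 0.17 (SE), edgeR adjusted p = 0.000139), and *Krt20*, a keratin of differentiated cells, at 22.8 and 19.4 against 144 and 122 CPM (log2 fold change 2.65 ± 0.19 (SE), edgeR adjusted p = 0.0001). Of 8 stem cell markers, 0 rose and 1 fell, *Olfm4*, and their sum was 4771 and 3644 CPM in the EtOH libraries, 2427 and 1983 CPM in those labelled 4-OHT. *Olfm4* alone stood at 3343 and 2240 against 1317 and 986 CPM, a large part of these sums, and the other stem cell markers did not pass. The enterocyte sums did not overlap between treatments and neither did the stem cell sums. Goblet cell markers had 2 of 8 higher, Paneth cell markers 0 of 6, enteroendocrine markers 0 of 8, and tuft cell markers 1 of 5 tested lower, with no others passing. The part of these cell types in the transporter differences was not tested.

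Of 20 listed partners and drivers of the carriers, 17 could be tested at day 6. Of these, 4 rose (23.5%, next to 2.27% of all tested genes) and 0 fell. Among these were *Car2*, a cytosolic carbonic anhydrase that supplies protons and bicarbonate (9.38 and 11.7 against 29.2 and 30.03 CPM, log2 fold change 1.496 ± 0.23 (SE), edgeR adjusted p = 0.00677), *Pdzk1*, a scaffold that binds brush border carriers and shares 43.1% of its exon bases with another gene (0.482 and 0.231 against 3.06 and 2.31 CPM, log2 fold change 2.88 ± 0.57 (SE), edgeR adjusted p = 0.028), and *Car4*, a carbonic anhydrase anchored at the cell surface. *Car4* had 0 counts in both day 6 EtOH libraries and 33 and 21 counts in those labelled 4-OHT (edgeR adjusted p = 0.0295). Set against 3 counts over the 2 EtOH libraries, its day 6 level was at least 16.1-fold higher, a bound that covers counting error only. At day 4 *Car4* lay the other way, at 0.356 CPM in the EtOH library and 0.068 CPM in the library labelled 4-OHT.

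Among 20 listed nuclear receptors and factors that regulate transporter genes, 1 rose and 0 fell, next to 2.27% and 0.235% of all tested genes. *Klf4*, a factor of differentiating epithelium, was at 44.5 and 61.1 against 97.3 and 127 CPM (log2 fold change 1.09 ± 0.21 (SE), edgeR adjusted p = 0.0238). Its groups did not overlap, which being picked by a test on the same libraries favours. *Hnf4a*, a master factor of intestinal and liver genes, was at 1039 and 1038 against 1051 and 1039 CPM (log2 fold change 0.01 ± 0.18 (SE), edgeR adjusted p = 0.991), with all 4 libraries close together. *Hnf4g*, its intestinal relative, was at 53.6 and 80.8 against 113 and 88.7 CPM (log2 fold change 0.59 ± 0.22 (SE), edgeR adjusted p = 0.33), with both libraries labelled 4-OHT above both EtOH libraries.

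The most abundant carriers were not those that passed. Ranked by mean CPM per kb of exon over the 6 libraries, *Slc5a1* came first at 83.9, then *Slc1a5* at 73.4, *Slc39a5*, a zinc importer of the basolateral side, at 58.5, *Slc1a4*, a carrier of small neutral amino acids, at 55.1 and *Slc7a5* at 45.2 CPM per kb. Of the 20 most abundant, 0 passed at day 6, 0 were past 2-fold at day 4, and 2 passed in the fit over both days described further on (*Slc22a18* and *Slc12a8*). The shares over all genes were 2.51% at day 6, 6.05% past 2-fold at day 4 and 4.39% over both days, in either direction. A set of 20 is too small to tell these counts from those shares. The 12 genes that passed ranked from 47 (*Slc6a8*, 11.1 CPM per kb) to 162 (*Slc4a11*, 0.801 CPM per kb) of 164. The neighbours *Slc5a1* and *Slc1a5* overlapped in their ranges over libraries, 62.1 to 103 and 62.5 to 79.4 CPM per kb.

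**Figure D3:**
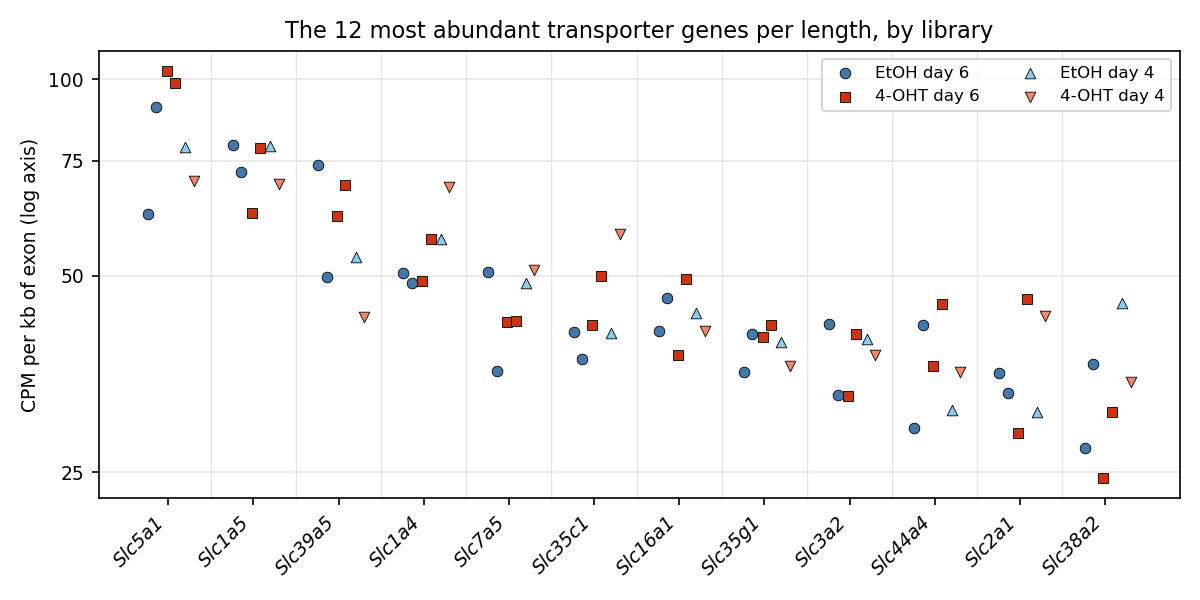
Level of the 12 most abundant solute carrier genes in each library (y axis, CPM per kb of exon on a log axis, 1 point a library). The treatments interleave for most genes, and in *Slc5a1*, the highest, the day 6 libraries labelled 4-OHT stand at 103 and 98.7, above the EtOH libraries at 62.1 and 90.7.

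Day 4 had 1 library a treatment, and its values are given as a description with no test. In the library labelled 4-OHT, 11 of the 164 members were past 2-fold upward and 2 downward, next to 4.66% and 1.39% of 12836 genes (6.05% in either direction). Of the 11, 5 (*Slc4a11*, *Slc45a3*, *Slc22a4*, *Slc35e4* and *Slc27a3*) were members only through the libraries labelled 4-OHT, which the choice of members favoured. Of the 156 genes past the minimum in each treatment, 6 (3.85%) were past 2-fold upward and 2 (1.28%) downward, near the shares of all genes. The medians were 0.07 over the members and 0.00 over all genes on the log2 scale. All 12 genes that passed at day 6 had a positive day 4 value, 5 of them past 2-fold (*Slc4a11*, *Slc40a1*, *Slc16a5*, *Slc35f6* and *Slc2a2*), and 10 of the 12 had a smaller value at day 4 than at day 6. Of all 164 members, 97 had a positive day 4 value. The 12 were picked by their day 6 values, which by itself favours smaller values at day 4. Enterocyte markers summed to 1528 CPM in the day 4 EtOH library and 2570.4 CPM in the one labelled 4-OHT. Paneth cell markers went from 393 to 1644 CPM (6 of 6 past 2-fold) and enteroendocrine markers from 58.9 to 279 CPM (7 of 8), and their part in the day 4 values was not tested.

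Single genes at day 4 are given by their levels. *Slc40a1* was at 11.8 CPM in the EtOH library and 32.4 CPM in the library labelled 4-OHT (log2 fold change 1.45), and *Slc2a2* at 5.19 CPM in the EtOH library and 11.3 CPM in the library labelled 4-OHT (1.105). *Slc6a19* was at 13.03 CPM in the EtOH library and 17.8 CPM in the library labelled 4-OHT (0.45), and *Slc26a6* at 14.3 CPM in the EtOH library and 19.6 CPM in the library labelled 4-OHT (0.45). The first pair was past 2-fold and the second was not. *Slc5a1* was slightly lower in the library labelled 4-OHT, with 323 CPM in the EtOH library and 287 CPM in the library labelled 4-OHT (-0.17).

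Among genes past 2-fold at day 4 that had not passed at day 6, the upward ones with the largest values were *Slc45a3* (1.45), a carrier linked with sugars, *Slc2a9* (1.41), a urate carrier, *Slc22a4* (1.32), the ergothioneine carrier, *Slc35e4* (1.23) and *Slc27a3* (1.08), of the fatty acid transport family. *Slc46a1* had a value of 1.04. Those past it downward were *Slc7a8*, a light chain for neutral amino acids of the basolateral side, and *Slc26a3*. *Slc7a8* was at 61.4 CPM in the EtOH library and 26.1 CPM in the library labelled 4-OHT (-1.23), and at day 6 at 50.04 and 47.5 against 36.6 and 37.01 CPM (log2 fold change -0.40 ± 0.17 (SE), edgeR adjusted p = 0.454). *Slc26a3* was at 50.7 CPM in the EtOH library and 21.6 CPM in the library labelled 4-OHT (-1.23). In both genes the libraries labelled 4-OHT were the lower ones on each day.

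**Figure D4:**
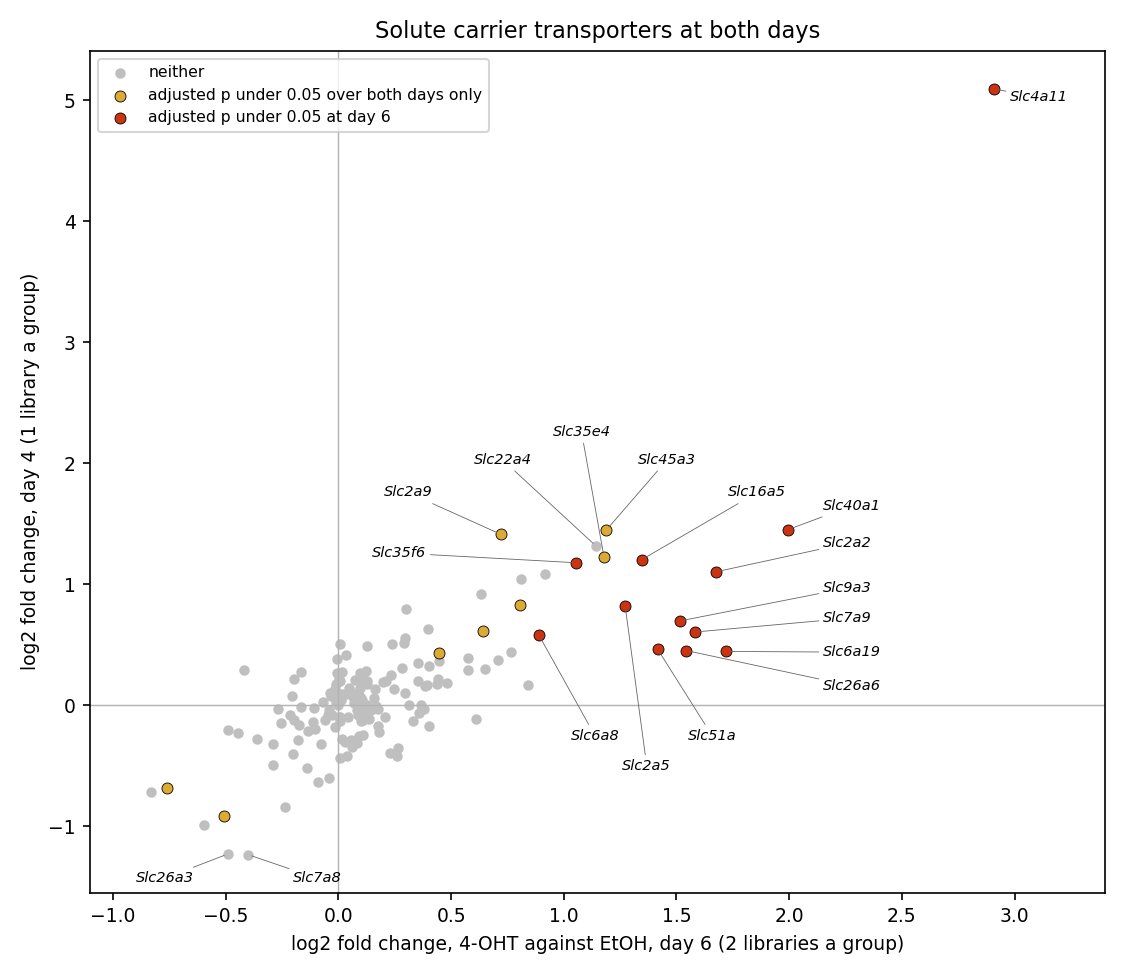
Log2 fold change (libraries labelled 4-OHT against EtOH) of the 164 genes at day 6 (x axis, 2 libraries a group) and at day 4 (y axis, 1 library a group), 1 point a gene, coloured by where its adjusted p was under 0.05. The 12 red points lie above 0 on both axes, with *Slc4a11* alone at the top right, and *Slc26a3* and *Slc7a8* lie lowest at day 4.

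A fit over all 6 libraries with day as a term shares its day 6 libraries with the first comparison and is no independent check of it. In it 18 members passed upward and 2 downward (edgeR quasi-likelihood test over 14060 genes), next to 3.67% of all genes upward and 0.718% downward (4.39% in either direction). Of the 18, 4 (*Slc4a11*, *Slc51a*, *Slc45a3* and *Slc35e4*) were members only through the libraries labelled 4-OHT, which the choice of members favoured, and 14 came from the 156 past the minimum in each treatment. All 12 genes of day 6 were among the 18. The other 6 that were higher were *Slc45a3* (log2 fold change 1.28 ± 0.20 (SE), edgeR adjusted p = 0.00622), *Slc35e4* (1.204 ± 0.23, 0.015), *Slc2a9* (0.96 ± 0.21, 0.034), *Slc35d1*, a carrier of nucleotide sugars into the endoplasmic reticulum (0.82 ± 0.16, 0.0214), *Slc22a18* (0.63 ± 0.13, 0.0212) and *Slc12a8* (0.44 ± 0.10, 0.0428), each given by its log2 fold change, SE and adjusted p. Those that were lower were *Slc16a12* (log2 fold change -0.74 ± 0.17 (SE), edgeR adjusted p = 0.0435) and *Slc23a4*, a nucleobase carrier of rodents (log2 fold change -0.64 ± 0.14 (SE), edgeR adjusted p = 0.0333).

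*Slc23a4* was at 42.9 and 37.4 against 28.97 and 27.3 CPM at day 6 and at 37.9 CPM in the EtOH library and 20.04 CPM in the library labelled 4-OHT at day 4. *Slc16a12* was at 31.9 CPM in the EtOH library and 19.8 CPM in the library labelled 4-OHT at day 4. In both genes every library labelled 4-OHT lay below every EtOH library. *Slc2a9* was at 8.95 and 13.4 against 17.5 and 19.2 CPM at day 6 and 10.8 CPM in the EtOH library and 29.1 CPM in the library labelled 4-OHT at day 4, again without overlap and in the other direction. The test that picked these genes used the same libraries, so their separation adds no support. Leaving out either day 6 library labelled 4-OHT left 11 members higher. The count lower became 0 without the first of these libraries or either day 4 library, and 1 without the second. Without either day 4 library, none of the 6 added rises passed either, with edgeR adjusted p from 0.0525 to 0.302, since the day term then leaves the day 6 libraries alone to give the difference. *Slc12a8* also missed the threshold with no filter on low counts (adjusted p = 0.0924) and with no day term (0.353), and *Slc2a9* with no day term (0.0772).

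Whether the difference between treatments changed from day 6 to day 4 was tested in a fit with 4 groups, where the lone day 4 libraries are assumed to vary like the day 6 ones. None of the 164 members passed, nor any of 16031 genes (0 calls, edgeR quasi-likelihood test), and DESeq2 likewise called 0 members. In simulated counts this fit recovered 18% of 2-fold and 86% of 4-fold differences. The 0 calls therefore do not show that the treatment difference was equal on both days. An unadjusted p under 0.05 was found for 5 members and 297 genes. These 5 were *Slc4a11* (day 6 minus day 4 difference -2.46 ± 0.95 (SE) on the log2 scale), *Slc6a19* (1.27 ± 0.54), *Slc26a6* (1.08 ± 0.36), *Slc7a9* (0.96 ± 0.40) and *Slc7a8* (0.83 ± 0.31). They were named after their values were seen.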

How the data were processed

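The authors deposited whole-number counts per gene, not normalized, 1 file a library, for 56884 Ensembl genes. STAR and the mm39 build come from the submitters' processing notes, and the annotation release and strand setting are not given in the sources used here. Per the labels' protocols, RNA was selected with poly-T beads and primed with random hexamers, and no molecular identifiers are named. Summary lines (19.3% to 26.7% of all entries) stayed out of library sizes. Symbols and positions come from GENCODE M39 (GRCm39), which matched 56323 identifiers holding 99.96% of counts. Counts were tested with edgeR 4.0.16 (quasi-likelihood F test in its current form, R 4.3.3), TMM scaling, filterByExpr with a minimum count of 10 and Benjamini-Hochberg adjustment over all genes tested. The SE of a log2 fold change is its size over the square root of F. Levels are TMM-scaled CPM. At day 4, log2 fold changes used a prior count of 2 and genes averaging 1 CPM or more. Scripts were tested on simulated counts with 200 changed genes. At an adjusted p under 0.05, 10.4% of the simulated calls in the day 6 fit were unchanged genes. In the fit over both days 6.47% were. The calls of both fits may therefore hold more false ones than the threshold implies. Each library counted as a sample. Replicate counts differed beyond sampling noise (chi-square per degree of freedom 33.2 for EtOH and 22.9 for 4-OHT), which does not show that the replicates are independent. Alternatives were DESeq2 1.42.0, other scaling and filters, a replicate block, an older edgeR form (chosen after seeing the data), other designs and leaving out each library.

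Named were members that passed at day 6 (up to 15 each way), those that passed over both days alone (up to 10), the 5 largest each way past 2-fold at day 4 alone, 30 transporters of known intestinal role where they are members (26 are), and partners and regulators that passed. The members and lists were chosen with earlier results of these data known. Other genes named for a role were chosen after their values were seen. Some items, 1 of the partners that rose among them, are not reported here.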

Additional observations from a re-analysis of the deposited data

How the results depend on the processing

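Of 132 values for the 12 genes that passed at day 6 (each gene under 11 alternatives), 108 kept direction and side of the threshold, 24 kept direction but no longer passed (23 of them on leaving out a library, the other being *Slc6a8* with no filter, adjusted p 0.0624 by edgeR), and 0 reversed. With the replicate block, 23 members were higher and 1 lower at day 6, next to 688 (4.89%) and 151 (1.07%) of all 14066 genes; same-numbered libraries deviated together with r = 0.27 over 14066 genes, but there are 2 pairs and the labels tie the numbers to nothing shared. Leaving out 1 library gave 2 to 12 members higher and 0 lower at day 6, and 11 to 20 higher and 0 to 2 lower over both days. Without a day term, 10 members were higher and 0 lower over both days. With it, DESeq2 called 23 members higher and 4 lower over both days. Shares over all genes are not given for these both-days alternatives. At day 6 DESeq2 called 15 members higher and 0 lower, next to 435 higher and 67 lower of all 14066 genes. At 1.5-fold in place of 2-fold, 19 members were higher and 9 lower at day 4, next to 9.68% and 5.09% of all genes. Day 6 values near 0 changed sign in genes that did not pass. With the replicate block, *Slc16a1* had -0.0046 and *Slc7a5* 0.0032. Leaving out a library gave log2 fold changes from the lowest to the highest of *Slc16a3* -0.11 to 0.48, *Slc29a1* -0.11 to 0.50, *Slc2a1* -0.25 to 0.43, *Slc6a6* -0.20 to 0.55, *Slc20a1* -0.14 to 0.26, *Slc12a7* -0.13 to 0.24, *Slc22a5* -0.12 to 0.13, *Slc16a1* -0.20 to 0.19, *Slc7a5* -0.24 to 0.25, *Slc3a2* -0.20 to 0.16, *Slc1a5* -0.28 to 0.0539 and *Slc38a2* -0.41 to 0.0389. The cause of these changes was not tested. Fewer libraries make the leave-out tests weaker by construction. *Slc4a11* rests on 6 to 12 counts in each day 6 EtOH library.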

Other observations

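Brush border carriers of known role below the 5 CPM minimum belong to no comparison above. *Slc15a1*, the proton-driven peptide carrier PEPT1, had 21 and 31 counts with EtOH at day 6 against 274 and 132 with the 4-OHT label, and 3 against 42 at day 4. *Slc10a2*, the apical bile acid carrier of the ileum, had 14 and 11 against 124 and 49 counts at day 6, and 2 against 7 at day 4. *Slc34a2*, a sodium-driven phosphate carrier, had 3 and 17 against 101 and 37 counts at day 6, and 11 against 12 at day 4. For all 3 genes the libraries labelled 4-OHT held the higher counts at day 6.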
